A study of Mus musculus with 2 samples.

Results

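Lamp3, Abca3, Slc34a2, Ctsh, Lyz2, Napsa and Lpcat1 are 7 genes named for the lamellar body and for alveolar type 2 cells of the lung. They were taken by symbol from the 31053 genes listed for the control library, and all 7 symbols matched exactly 1 listed gene each. Their unique molecular identifiers (UMIs, 1 per captured RNA molecule) were counted in single cells and compared between cells with and without a UMI of Sftpa1, Ager, Sox9 or Sox2. The cells were sorted epithelial cells from lungs of mouse embryos at embryonic day 15 with the genotype given as control, in 1 library. The labels name no strain, no allele and no number of embryos for this group, so a single pool of unknown make-up stands for the condition. A second library, of cells in which the LEF/TCF transcription factors were knocked out, belongs to the same series, and its expression was not analysed here.

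Alveolar type 2 cells make pulmonary surfactant, the film of lipid and protein that keeps alveoli open, and store it in lamellar bodies. A lamellar body is a lysosome-related organelle: it shares membrane proteins and proteases with lysosomes but is filled with packed surfactant phospholipid and is secreted. In the embryonic lung the distal tips carry Sox9, the airways carry Sox2, and cells at the distal tips later form alveolar type 2 cells, which express Sftpa1, and flat alveolar type 1 cells, which express Ager.

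Each of the 7 genes has a known place in that system. Lamp3 is a membrane glycoprotein of lamellar bodies. Abca3 is the transporter that moves phospholipid across the lamellar body membrane. Ctsh, an aminopeptidase, and Napsa, an aspartic protease, take part in cutting the precursors of surfactant proteins B and C. Lpcat1 is an acyltransferase that makes the saturated phosphatidylcholine of surfactant. Slc34a2 is a sodium-phosphate cotransporter of the apical membrane of alveolar type 2 cells. Lyz2 is the lysozyme of macrophages and other myeloid cells, which mature mouse alveolar type 2 cells also express.

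The promoter windows of the genes are shown first because the series concerns transcription factors. Windows of 250 bases before the RefSeq start (GRCm38.p6) were found for 5 of the 7 genes, all except Ctsh and Napsa. Each window was searched on both strands for 7 short strings. The string for NKX2-1 factors was CTCAAG. For C/EBP factors TTGCNNAA was used. FOX factors were given by TGTTTNC. The ETS family was given by CCGGAAG. For GATA factors the string was AGATAA. The E-box of TFEB was searched as TCACGTGA. LEF/TCF factors were given by CTTTGA. No matches of different strings overlap in the windows shown. The match found for TTGCNNAA was TTGCGCAA, which reads alike on both strands, so it was counted once. The Lamp3 window, chr16:19706366-19706615 on the minus strand, holds TGTTTNC at -162 to -156 and again at -92 to -86, counted from the base before the start, and these letters are in capitals in the first line below. The Slc34a2 window, chr5:53049103-53049352 on the plus strand, holds TTGCNNAA at -48 to -41, in capitals in the second line. The 2 windows are those in which any of the 7 strings was found.
Lamp3: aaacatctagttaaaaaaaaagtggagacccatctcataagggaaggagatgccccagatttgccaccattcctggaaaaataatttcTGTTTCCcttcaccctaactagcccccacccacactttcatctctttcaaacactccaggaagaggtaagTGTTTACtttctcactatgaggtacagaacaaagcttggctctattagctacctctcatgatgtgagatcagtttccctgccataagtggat
Slc34a2: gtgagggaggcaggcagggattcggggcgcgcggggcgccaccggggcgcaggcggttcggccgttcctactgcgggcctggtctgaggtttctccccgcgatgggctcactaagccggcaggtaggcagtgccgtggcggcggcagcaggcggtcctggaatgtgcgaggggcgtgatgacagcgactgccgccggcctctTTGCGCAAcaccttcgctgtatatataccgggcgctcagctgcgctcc
Of 32851 mouse windows of the same length, 17.8% hold TGTTTNC and 9.56% hold TTGCNNAA. The other strings are held by 13.3% (CTCAAG), 6.91% (CCGGAAG), 9.99% (AGATAA), 0.785% (TCACGTGA) and 13.8% (CTTTGA) of all windows and by none of the 5 windows of these genes. A match is a run of letters and was not tested as a site. The Slc34a2 window lies inside the gene model of GENCODE M21, and that gene model overlaps the antisense gene Gm17182.

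The control library listed 3568 barcodes, and 3457 of them passed the limits of 1000 detected genes or more and 10% mitochondrial UMIs or less. Kept cells held 53639813 UMIs, from 2013 to 112424 per cell with a median of 12826. An epithelial identity was checked with Epcam, which had a UMI in 96.0% of kept cells. Of the kept cells, 24 had 10 or more UMIs of mesenchymal collagen genes and Dcn, and 2 cells had 3 or more UMIs of immune markers. Both 4 or more Xist UMIs and a Y-linked UMI were found in 249 cells (7.20%). Droplets that caught cells of different sex would show this pattern, but whether these cells were such droplets was not tested. The share differed between groups of different depth. It was 2.26% of Sox9-negative cells (median 9751 UMIs) and 35.8% of cells with both Sox9 and Sox2 (median 24650 UMIs). Of the barcodes, 29 also occur in the list of the knockout library. There was 1 library, so no value has a replicate spread, no test was made, and each interval is a 95% interval that covers counting error only.

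The 4 marker groups share cells, so their levels and intervals are not independent of each other. A UMI of Sftpa1 was found in 836 cells, of Ager in 1525, of Sox9 in 2172 and of Sox2 in 697. Of the Sftpa1-positive cells, 85.9% were also Sox9-positive, 53.6% Ager-positive and 8.85% Sox2-positive. Marker-positive cells were deeper than marker-negative ones, with median UMIs of 16179.5 against 11695 for Sftpa1, 15565 against 10818.5 for Ager, 14919.5 against 9751 for Sox9 and 14055 against 12671 for Sox2. Cells with Xist and a Y-linked UMI made up 12.3% of Sftpa1-positive, 11.7% of Ager-positive, 10.1% of Sox9-positive and 17.4% of Sox2-positive cells. RNA of other cell types also differed: summed mesenchymal markers were at 3.28 CPM in Sftpa1-positive and 20.9 CPM in Sftpa1-negative cells, and at 4.69 and 44.8 CPM with and without Sox9. The 24 mesenchymal cells, of which 0 were Sftpa1-positive and 1 was Sox9-positive, held these markers at 1840.5 CPM. Levels of these markers without those 24 cells were not computed. Summed blood and platelet markers were at 1.11 and 28.9 CPM by Sftpa1 and at 1.32 and 72.3 CPM by Sox9, but 1000 of their 1077 UMIs were in the 2 cells with immune UMIs. Without those 2 cells the levels were 1.11 and 1.59 CPM by Sftpa1 and 1.32 and 1.76 CPM by Sox9. Each comparison was also run without the 24 mesenchymal cells and the 2 cells with immune UMIs. Over 11 alternatives, that one included, the ratio of levels with over without Sftpa1 was 2.14 to 4.37 for Lamp3. It was 1.32 to 2.36 for Abca3, 1.91 to 2.40 for Ctsh, 3.23 to 6.14 for Napsa and 1.28 to 1.43 for Lpcat1. For Sox9 these ranges were 1.86 to 3.67, 1.38 to 1.66, 1.39 to 2.05, 1.99 to 4.72 and 1.18 to 1.43. The part of RNA of other cell types in the remaining cells was not tested. For depth and for cells with Xist and a Y-linked UMI, values from alternative choices of cells or markers are given beside the results. Because depth differed, levels are given as CPM, a gene's UMIs per 1000000 UMIs of the group, and shares of cells are given after thinning every cell to 5000 UMIs, which 3365 cells reached.

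The 7 genes differed widely in how often they were counted. Ctsh (chr9:90054152-90076089, GRCm38, ENSMUSG00000032359) had 3498 UMIs, and Lpcat1 (chr13:73467197-73516422, ENSMUSG00000021608) had 1899. Abca3 (chr17:24351950-24410201, ENSMUSG00000024130) had 384 UMIs, Lamp3 (chr16:19653378-19706375, ENSMUSG00000041247) had 197, and Napsa (chr7:44572380-44586862, ENSMUSG00000002204) had 61. Slc34a2 (chr5:53038081-53071664, ENSMUSG00000029188) had 10 and Lyz2 (chr10:117277331-117282321, ENSMUSG00000069516) had 9. These are counts from the 3′ ends of transcripts and were not scaled by length, so their order is an order of counting depth. The 2 rarest genes were too few to enter the comparisons, which needed 50 UMIs over both groups, and are described on their own.

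Even the most frequently counted genes were seen in a minority of cells. Before thinning, a UMI was found in 46.3% of cells for Ctsh, 37.3% for Lpcat1, 10.2% for Abca3, 4.98% for Lamp3 and 1.71% for Napsa. At 5000 UMIs per cell the shares were 24.2% for Ctsh (interval 22.7% to 25.6%), 16.1% for Lpcat1 (14.9% to 17.4%), 3.48% for Abca3, 1.58% for Lamp3 and 0.624% for Napsa. Most detections were of single molecules: 149 of 172 Lamp3 cells and 57 of 59 Napsa cells had 1 UMI, while Ctsh reached 19 UMIs in a cell. In the 24 mesenchymal cells Ctsh had 4 UMIs (18.6 CPM, interval 5.08 to 47.7), Lpcat1 had 1 and the other 5 genes had none, at a median of 7674.5 UMIs per cell. Epithelial markers summed to 18.6 CPM in these cells and to 1751 CPM in all kept cells. Whether the Ctsh UMIs there came from RNA outside the cells was not tested. After thinning, 1 of 21 such cells (4.76%, interval 0.12% to 23.8%) kept a Ctsh UMI.

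Lamp3 was highest where Sftpa1 was present and lowest where Sox2 was present. Its level was 6.04 CPM (interval 4.93 to 7.33) in Sftpa1-positive cells and 4.36 CPM (3.73 to 5.06) in Sox9-positive cells, which overlap. It was 2.85 CPM (2.27 to 3.53) in Ager-positive and 1.498 CPM (0.902 to 2.34) in Sox2-positive cells, which also overlap, while the Sox9 and Ager values are apart. Against cells without the marker, the ratio was 2.35 (1.76 to 3.14) for Sftpa1, 2.47 (1.62 to 3.93) for Sox9, 0.61 (0.45 to 0.81) for Ager and 0.34 (0.20 to 0.55) for Sox2. Among cells with no more than 14000 UMIs the Sftpa1 ratio was 4.37 (2.55 to 7.46). The Ager ratio was 0.88 (0.49 to 1.55) in the same cells.

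Abca3, the phospholipid transporter, was called higher for Sftpa1 and lay near the 1.5-fold limit for Sox9. It stood at 10.2 CPM (8.74 to 11.8) in Sftpa1-positive cells, apart from all 3 other groups, which overlapped at 7.81 CPM for Sox9, 6.86 CPM for Sox2 and 6.48 CPM for Ager. Its ratio was 1.78 (1.45 to 2.18) for Sftpa1, 1.46 (1.13 to 1.90) for Sox9, 0.81 (0.66 to 0.99) for Ager and 0.95 (0.74 to 1.21) for Sox2. The Sox9 ratio passed 1.5-fold, with an interval above 1, in cells with 14000 UMIs or fewer (1.66, 1.15 to 2.42), at a mitochondrial share of 5% or less (1.54), without cells of Xist and Y-linked UMIs (1.53), at 2 or more Sox9 UMIs (1.61) and with Sox9 thinned (1.52). Among the 5 genes with enough UMIs, Abca3 was the nearest to equal levels in Sox2-positive and Sox2-negative cells. Where Sftpa1-positive cells were defined after thinning to 5000 UMIs, the Sftpa1 ratio was 1.32 and its interval (0.99 to 1.73) included 1. Among the shallower cells, those with 14000 UMIs or fewer, it was 2.36 (1.61 to 3.42).

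Ctsh showed an order of 4 groups in which the intervals of neighbours did not overlap, though the groups share cells. Its level was 100.2 CPM (95.5 to 105) in Sftpa1-positive, 74.9 CPM (72.2 to 77.7) in Sox9-positive, 65.6 CPM (62.7 to 68.6) in Ager-positive and 40.4 CPM (36.9 to 44.0) in Sox2-positive cells. At equal depth, 39.7% of Sftpa1-positive cells had a Ctsh UMI against 19.0% of Sftpa1-negative cells, and 14.0% of Sox2-positive cells against 26.7% of Sox2-negative cells. The ratio of levels was 2.05 (1.91 to 2.19) for Sftpa1, 1.96 (1.79 to 2.15) for Sox9, 1.01 (0.95 to 1.08) for Ager and 0.55 (0.50 to 0.61) for Sox2. Where Sox9-positive cells were defined after thinning, the Sox9 ratio was 1.39 (1.30 to 1.48) and was no longer 1.5-fold.

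Napsa, the aspartic protease, was rare but had the largest Sftpa1 ratio of the 5 genes. It had 39 UMIs (2.29 CPM, interval 1.63 to 3.13) in Sftpa1-positive and 22 UMIs (0.601 CPM, 0.377 to 0.910) in Sftpa1-negative cells, a ratio of 3.80 (2.20 to 6.74). For Sox9 the counts were 53 and 8 UMIs and the ratio was 2.38 (1.13 to 5.80). For Sox2 they were 3 and 58 UMIs and the ratio was 0.17 (0.03 to 0.51). Within cells holding 14000 UMIs or fewer the Sox2 ratio was 0.22 (0.01 to 1.33), and with Sox2 defined after thinning it was 0.28 (0.03 to 1.05), so neither excluded 1. For Ager the 34 and 27 UMIs gave a ratio of 1.03 (0.60 to 1.78), an interval too wide to tell a modest difference from none.

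Lpcat1, the acyltransferase, was called for none of the 4 markers over all kept cells. Its level was 42.2 CPM (39.1 to 45.4) in Sftpa1-positive, 37.7 CPM in Sox9-positive and 36.5 CPM in Ager-positive cells, neighbours whose intervals overlap, and 28.2 CPM (25.4 to 31.3) in Sox2-positive cells, apart from the rest. The ratio was 1.31 (1.19 to 1.44) for Sftpa1, 1.29 (1.16 to 1.45) for Sox9, 1.07 (0.98 to 1.17) for Ager and 0.75 (0.67 to 0.84) for Sox2. All 3 intervals other than that of Ager exclude 1, yet no ratio reached 1.5-fold. Among cells of 14000 UMIs or fewer the Sox2 ratio was 0.66 (0.51 to 0.85), past that limit.

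**Figure D1:**
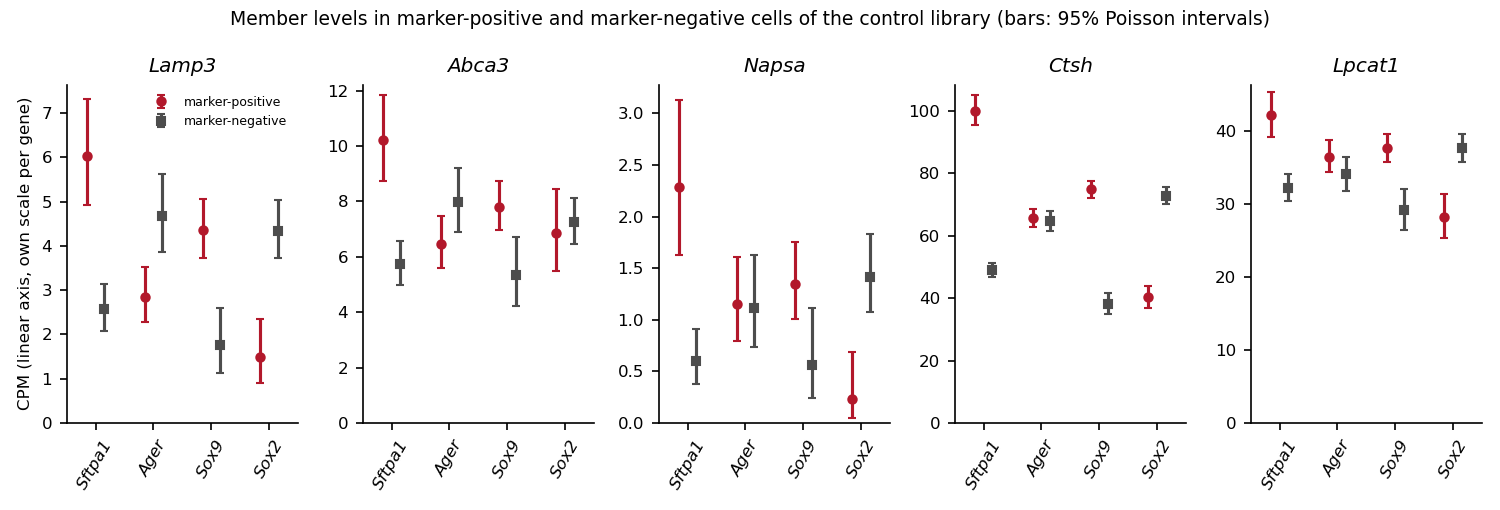
Levels of 5 genes in CPM (linear axis from 0, own scale per gene) in cells with a UMI of each marker (red circles) and without one (grey squares), with 95% Poisson intervals for counting error. Ctsh is at 100.2 CPM in Sftpa1-positive and 40.4 CPM in Sox2-positive cells, and Abca3 is at 6.86 CPM with Sox2 and 7.25 CPM without.

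To read these ratios against the rest of the transcriptome, a gene was called higher or lower when its CPM differed at least 1.5-fold with an interval that excludes 1, over all genes of at least 50 UMIs. Between Sftpa1-positive and Sftpa1-negative cells, 4 of the 5 counted members (Lamp3, Abca3, Ctsh and Napsa) were called higher and none lower, where 1.59% of 11810 genes were called higher and 4.51% lower. Between Sox9-positive and Sox9-negative cells, 3 of 5 (Lamp3, Ctsh and Napsa) were higher, where 2.64% of genes were higher and 5.93% lower. Between Sox2-positive and Sox2-negative cells, 3 of 5 (Lamp3, Ctsh and Napsa) were lower, where 3.29% of genes were lower and 11.3% higher, and the median gene had a ratio of 1.09. Between Ager-positive and Ager-negative cells, 1 of 5 (Lamp3) was lower and none was higher, where 2.23% of genes were lower and 1.13% higher. The median ratio of the 5 was 2.05 for Sftpa1 and 1.01 for Ager, and that of all genes was 0.998 and 1.03. The 4 comparisons divide the same cells and are not independent of each other.

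With totals that leave out mitochondrial and ribosomal protein genes, the Ager comparison called 91 genes higher and 319 lower, in place of 133 and 263. Lamp3 kept its call there. It lost it when each cell was weighted equally (ratio 0.74) and when Ager-positive cells were defined after thinning (0.71, interval 0.47 to 1.03). Within cells holding 14000 UMIs or fewer, Abca3 was the member called lower (0.64, interval 0.42 to 0.95).

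**Figure D2:**
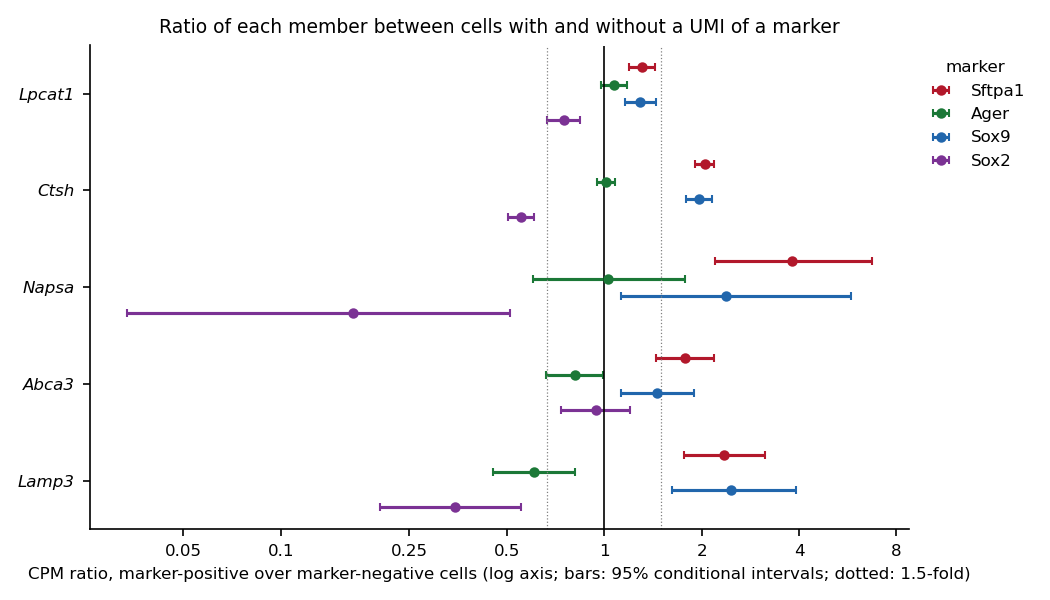
Ratio of CPM in marker-positive over marker-negative cells for 5 genes and 4 markers (log axis), with 95% conditional intervals for counting error. Dotted lines mark 1.5-fold in each direction. The Sftpa1 and Sox9 ratios of all 5 genes lie above 1, from 1.29 to 3.80, and those for Sox2 lie below 1, with the interval of Abca3 (0.74 to 1.21) spanning it.

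Because marker groups share cells, cells with only 1 marker of a pair were also compared. In 388 cells with Sftpa1 and without Ager, Lamp3 was at 9.32 CPM (7.04 to 12.1), Abca3 at 11.5 CPM (8.94 to 14.5) and Ctsh at 117 CPM (109 to 126). In 1077 cells with Ager and without Sftpa1, they were at 2.01, 4.66 and 50.4 CPM. The ratios were 4.65 (3.01 to 7.24) for Lamp3, 2.46 (1.77 to 3.42) for Abca3, 2.32 (2.10 to 2.57) for Ctsh and 1.24 (1.07 to 1.45) for Lpcat1. Lamp3, Abca3 and Ctsh were called higher, 3 of the 4 members counted, where 2.0% of genes were higher and 5.51% lower. In cells with 14000 UMIs or fewer the Abca3 ratio was 3.77 (2.11 to 6.89), and with markers thinned that of Lamp3 was 3.03 (1.76 to 5.32). Napsa was under the 50 UMI minimum with 18 against 13 UMIs, a ratio of 4.25 (1.97 to 9.44). The 448 cells with both markers lay between for Lamp3 (4.25 CPM) and Ctsh (91.0 CPM), but these were also the deepest of the 4 classes, with a median of 20749.5 UMIs, and 17.6% of them had Xist and a Y-linked UMI. The part of such cells in these values was not tested.

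Between Sox9-only and Sox2-only cells, Lamp3 had the largest ratio of the 5 counted genes, with an interval that overlaps that of Napsa. In 1887 cells with Sox9 and without Sox2, Lamp3 had 155 UMIs (4.90 CPM), and in 412 cells with Sox2 and without Sox9 it had 2 UMIs (0.411 CPM), a ratio of 11.9 (3.24 to 99.2). Ctsh was at 81.2 against 25.5 CPM, a ratio of 3.18 (2.66 to 3.84), and Napsa had 51 UMIs against 1, a ratio of 7.84 (1.35 to 316). Lpcat1 was at 39.5 against 25.3 CPM, a ratio of 1.56 (1.30 to 1.90), which was 1.48 where a marker needed 2 UMIs and 1.38 with markers defined after thinning. The latter setting gave 4.66 (1.94 to 14.65) for Lamp3, and cells with 14000 UMIs or fewer gave 5.67 (0.91 to 235) for Napsa. Abca3 alone of the 5 was not called, at 8.00 against 6.58 CPM and a ratio of 1.22 (0.84 to 1.82). The 4 calls compare with 5.97% of genes higher and 15.2% lower, and with a median gene at a ratio of 0.916. Of the 19 Lamp3 UMIs in Sox2-positive cells, 17 came from 285 cells that also had Sox9, of which 35.8% had Xist and a Y-linked UMI. Without all cells of that kind the Lamp3 ratio between Sox2-positive and Sox2-negative cells was 0.19 (0.07 to 0.40).

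**Figure D3:**
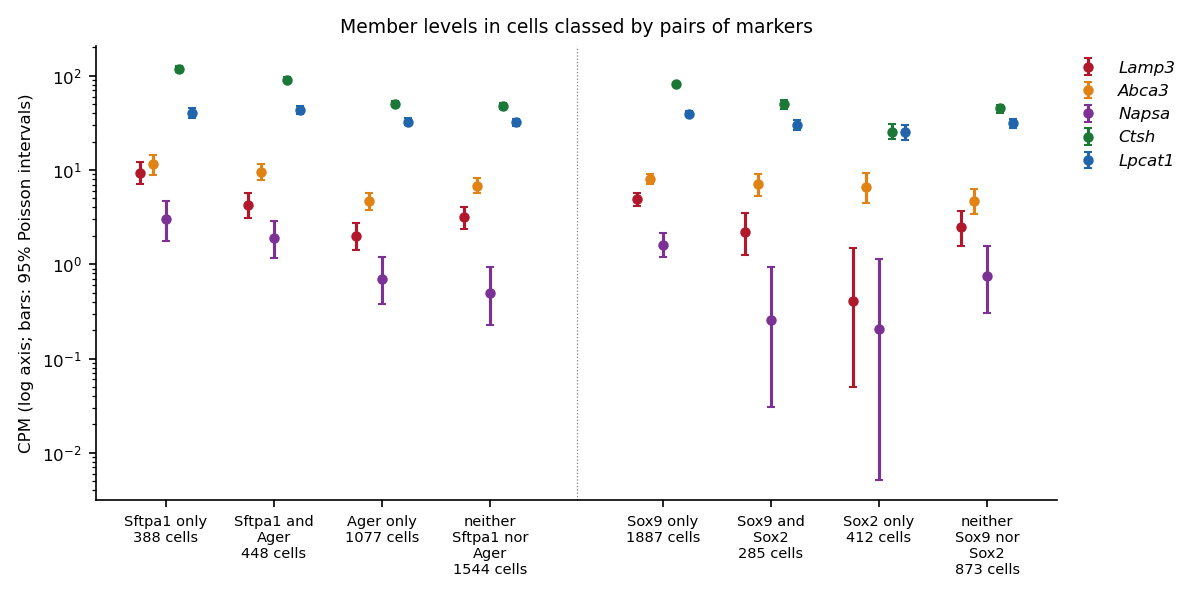
Levels of 5 genes in CPM (log axis) with 95% Poisson intervals, in cells classed by Sftpa1 and Ager (left of the dotted line) and by Sox9 and Sox2 (right). Lamp3 is at 4.90 CPM with Sox9 only and 0.411 CPM with Sox2 only, while Abca3 is at 8.00 and 6.58 CPM in the same classes.

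The Sftpa1 differences were also present inside the Sox9-positive compartment. Among 2172 Sox9-positive cells, Lamp3 was at 6.07 CPM with Sftpa1 and 3.26 CPM without (ratio 1.86, interval 1.37 to 2.55). Abca3 was at 10.4 and 6.14 CPM (1.69, 1.35 to 2.13), Ctsh at 102 and 57.6 CPM (1.77, 1.64 to 1.90) and Napsa at 2.32 and 0.710 CPM (3.27, 1.79 to 6.22). These 4 were called higher and Lpcat1 (1.25, interval 1.13 to 1.39) was not, where 1.09% of genes were higher and 1.84% lower. With Sftpa1-positive cells defined after thinning, the Abca3 ratio was 1.06 (0.72 to 1.52) and that of Napsa 2.04 (0.91 to 4.30), and neither was called. Among cells of 14000 UMIs or fewer the ratios were 3.46 (1.90 to 6.34) for Lamp3, 2.26 (1.44 to 3.53) for Abca3, 1.67 (1.43 to 1.94) for Ctsh and 6.12 (2.31 to 17.9) for Napsa.

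The same Sox9-positive cells divided by Ager gave another picture. Lamp3 was at 3.25 CPM with Ager and 6.07 CPM without, a ratio of 0.54 (0.39 to 0.73), and was called lower, where 0.685% of genes were lower and 1.71% higher. Abca3 (0.73, interval 0.58 to 0.91) and Ctsh (0.89, 0.83 to 0.96) had intervals below 1 but did not reach 1.5-fold. Napsa (0.72, 0.41 to 1.29) and Lpcat1 (1.05, 0.94 to 1.17) had intervals that included 1. Among cells with no more than 14000 UMIs the Lamp3 ratio was 0.94 (0.49 to 1.73) and Abca3 was called lower instead (0.60, 0.35 to 0.98), and with Ager defined after thinning the Lamp3 ratio was 0.70 (0.40 to 1.15). With totals that leave out mitochondrial and ribosomal protein genes, this comparison called 123 genes higher and 105 lower, in place of 192 and 77.

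Sox9-positive cells with a UMI of the proliferation genes Mki67 or Top2a at equal depth were compared with the others. Lamp3 was at 5.18 CPM in 1083 such cells and 3.45 CPM in 1073 other cells, a ratio of 1.501 (1.09 to 2.08) at the edge of a call, where 2.24% of genes were higher and 0.864% lower. In 4 of 9 alternatives no member was called. Abca3 (1.31), Ctsh (1.19), Napsa (1.47) and Lpcat1 (0.92) were not called. Among cells of 14000 UMIs or fewer Abca3 was called (1.67, interval 1.07 to 2.63) and Lamp3 was not (1.55, 0.85 to 2.85). Napsa (0.78, 0.28 to 2.02) and Lpcat1 (1.11, 0.90 to 1.36) lay on the other side of 1 there, with intervals that include it.

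Grading was examined at equal depth, with cells sorted by the number of Sftpa1 UMIs left after thinning. Ctsh was at 55.0 CPM (51.3 to 58.9) in 2966 cells with none, 118 CPM (101 to 137) in 297 cells with 1, and 157 CPM (124 to 196) in 98 cells with 2 to 4. The Ctsh intervals of the first 2 classes are apart, and those of the last 2 overlap. Ratios between classes were not computed, and overlapping intervals do not by themselves show equal levels. Lamp3 was at 2.76, 6.73 and 8.16 CPM and Napsa at 0.944, 2.69 and 6.12 CPM, with 4 and 3 UMIs in the last class and intervals that overlap from class to class. Lpcat1 was at 34.3, 43.8 and 46.9 CPM and Abca3 at 7.22, 8.08 and 4.08 CPM, with overlapping intervals. Only 4 cells kept 5 or more Sftpa1 UMIs.

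By Ager no class stood apart from its neighbour. Ctsh was at 64.5 CPM in 2646 cells with no Ager UMI, 65.2 CPM in 555 cells with 1 and 47.9 CPM (34.0 to 65.4) in 163 cells with 2 to 4. Lpcat1 was at 36.3, 36.0 and 23.3 CPM (14.0 to 36.4). Abca3 was at 7.71, 4.32 and 8.59 CPM, Lamp3 at 3.401, 2.88 and 2.45 CPM and Napsa at 1.21, 1.44 and 1.23 CPM. All these intervals overlap from class to class.

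**Figure D4:**
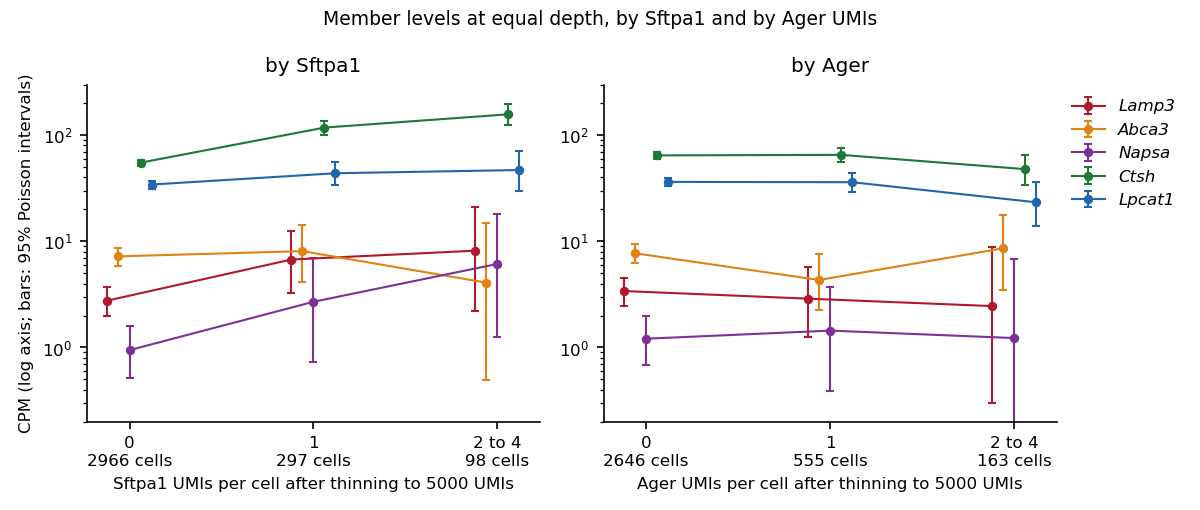
Levels of 5 genes in CPM (log axis, 95% Poisson intervals) in cells with 0, 1 or 2 to 4 UMIs of Sftpa1 (left) or Ager (right) after thinning to 5000 UMIs. Ctsh goes from 55.0 to 118 to 157 CPM with Sftpa1 and from 64.5 to 65.2 to 47.9 CPM with Ager.

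By Sox9, Abca3 was at 5.77 CPM (4.39 to 7.45) in 2044 cells with no UMI, 7.20 CPM (4.83 to 10.3) in 805 cells with 1 and 12.6 CPM (8.53 to 17.8) in 494 cells with 2 to 4, the ends of which are apart. Ctsh was at 50.1, 78.3 and 91.5 CPM along the same classes, and Lamp3 at 2.15, 5.22 and 4.86 CPM. Only 22 cells kept 5 or more Sox9 UMIs. In them Ctsh was at 182 CPM (111 to 281), Abca3 had 2 UMIs and Lamp3 had none. By Sox2, Lamp3 had 55 UMIs in 2985 cells with no Sox2 UMI and none in the 258 cells with 1 or the 117 cells with 2 to 4. Ctsh was at 68.6, 26.4 and 23.9 CPM along these classes, and Abca3 at 6.83, 8.53 and 13.7 CPM (5.90 to 26.9), with overlapping intervals.

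Slc34a2, the phosphate cotransporter, was at the edge of detection. Its 10 UMIs were in 9 cells, all of them Sox9-positive, and 8 of the 10 UMIs were in 7 Sftpa1-positive cells. Ager-positive cells held nearly as many, 7 UMIs in 6 cells, a ratio of 1.91 (0.44 to 11.5) from 7 against 3 UMIs. The level was 0.469 CPM (0.203 to 0.924) in Sftpa1-positive and 0.0547 CPM (0.00662 to 0.197) in Sftpa1-negative cells, a ratio of 8.58 (1.71 to 83.0) from 8 against 2 UMIs. Over 11 alternatives this Sftpa1 ratio was 2.41 to 14.9, lowest in cells of 14000 UMIs or fewer, and 9 of 10 intervals excluded 1. No UMI was seen in 1285 Sox9-negative cells, and with 3 counts as the limit for that group the level was at least 1.20-fold higher in Sox9-positive cells. The lower bound of that ratio was 0.81, so counting error alone covers equal levels. The cells were deep, with a median of 22562 UMIs, and 2 of the 9 had Xist and a Y-linked UMI. The opposite-strand gene Gm17182, which overlaps Slc34a2, had 1 UMI.

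Lyz2 did not follow the other genes. Its 9 UMIs were in 4 cells, none of them Sftpa1-positive, and 7 of the 9 were in the 2 cells with 3 or more immune UMIs, which had no UMI of Sftpa1, Ager, Sox9 or Sox2. The first of these, with 6 Lyz2 UMIs among 2311, had 67 UMIs over 8 of 9 immune markers, the complement genes C1qa, C1qb and C1qc and the receptor gene Csf1r of macrophages among them, and no epithelial marker UMI. The second, with 1 Lyz2 UMI among 6697, had 20 immune UMIs of Fcer1g and Coro1a and 997 UMIs of blood and platelet markers, 867 of them of Pf4 and 129 of Ppbp, chemokines of platelets. The remaining 2 cells had 1 Lyz2 UMI each, no immune UMI, and 31 and 27 UMIs of epithelial markers. At equal depth, 0 of 833 Sftpa1-positive cells had a Lyz2 UMI, which allows a share of up to 0.360% of cells with one at 3 counts (exact upper bound 0.442%). With 3 counts as the limit for the group, the level was at least 1.40-fold lower than in Sftpa1-negative cells, but the upper bound of the ratio was 1.09, so the difference is not beyond counting error. Lyz1, a close copy of Lyz2, had 2 UMIs, both in Sftpa1-positive cells, and reads of these copies may be divided between them or lost in counting.

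Genes of the same families as the members were set beside them. Of 19 relatives, 12 had 50 UMIs or more, and none was called higher or lower between Sftpa1-positive and Sftpa1-negative cells, with a median ratio of 1.06. The widest were Abca2 (1.31) and Lpcat2 (1.16) above and Abca7 (0.75) and Abca5 (0.88) below, all with intervals that include 1. Lamp1 (1.08) and Lamp2 (0.92), the common lysosomal membrane proteins, and Ctsb (1.03), a lysosomal protease, are given as the most familiar relatives and were chosen after their values were seen. Slc34a1, Slc34a3 and Lamp5 had no UMI. Between Sox9-only and Sox2-only cells, again none of the 12 was called, with Lpcat2 at 1.75 (0.85 to 4.17) and Abca5 at 0.60 (0.34 to 1.11).

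**Figure D5:**
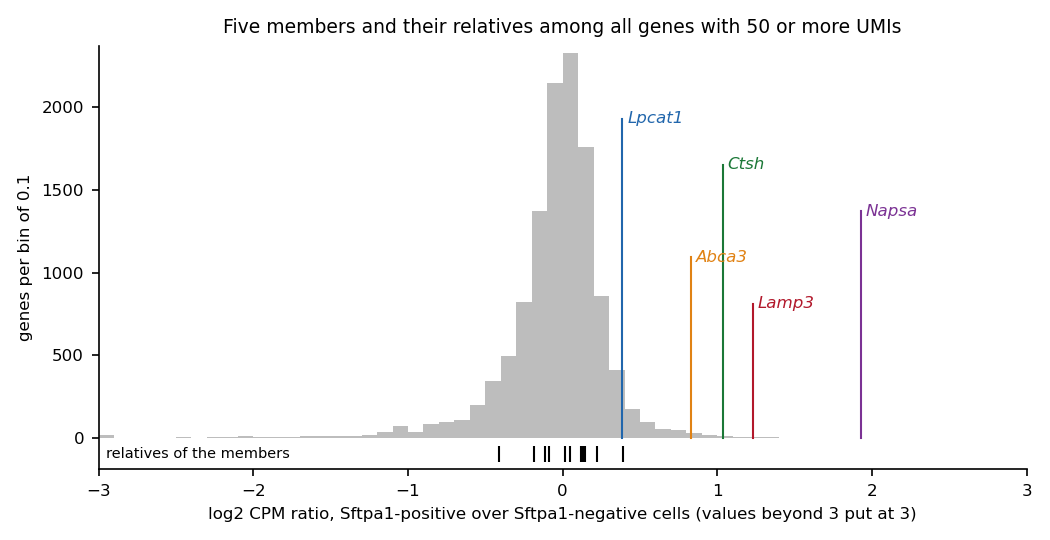
Histogram of the log2 CPM ratio between Sftpa1-positive and Sftpa1-negative cells over all genes of at least 50 UMIs (bins of 0.1), with 5 members as coloured lines of arbitrary height and their 12 counted relatives as black ticks under the axis. The relatives lie between ratios of 0.75 and 1.31, and Napsa lies at 3.80.

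Counts of the lists in this comparison stand beside the 1.59% of all genes called higher and the 4.51% called lower. Of 21 general lysosome genes, none was called in either direction with Sftpa1, and their median ratio was 0.973, from 0.69 for Tfeb, a transcription factor of lysosome genes, and 0.77 for Psap, the precursor of saposins, to 1.22 for Gla, a galactosidase, and 1.33 for Npc1, a cholesterol exporter. Of 16 counted genes of lamellar body assembly and surfactant lipid, 1 was called higher: Adgrf5, an adhesion receptor that limits the surfactant pool (2.40, interval 1.61 to 3.57). Fabp5, a fatty acid binding protein, was at 1.13, Hps1 at 0.77 and Rab38, a GTPase of lysosome-related organelles, at 0.84. The median of these 16 was 0.990. Both counted surfactant protein genes other than Sftpa1 were called higher: Sftpb was at 59.4 against 19.4 CPM (3.07, interval 2.79 to 3.38) and Sftpc at 1913 against 1103 CPM (1.73, 1.71 to 1.76).

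Other genes used as alveolar type 2 markers were divided. Of 9 counted, 4 were called higher with Sftpa1 and none lower, and their median ratio was 1.48. Dram1, a lysosomal membrane protein of autophagy, was at 2.20 and Egfl6, a secreted matrix protein, at 1.87, while Muc1, a membrane mucin, was at 0.92 and Cd74, the class II invariant chain, at 0.99. Of 11 alveolar type 1 markers, 1 was lower, Clic5 at 0.20 (0.08 to 0.41). Pdpn (1.37) and Akap5 (1.27) lay above 1 and Cav1 (0.70) below without a call.

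Between Sox9-only and Sox2-only cells all lists were counted again, beside 5.97% of all genes called higher, 15.2% called lower and a median gene at 0.916. Of the 9 counted alveolar type 2 markers, 7 were higher, led by Dram1 at 18.7 (10.9 to 35.3) and Lgi3 at 9.82 (6.46 to 15.7), with Muc1 (0.81) and Cebpa (0.83) not called. Markers too rare to be counted went in both directions. S100g had 1 UMI against 13 (0.0118, interval 0.000278 to 0.0787) and Hc 5 against 6 (0.128, 0.0309 to 0.504). Both were called lower where the minimum was 10 UMIs. Il33 had 19 UMIs against 0 and Chil1 had 1 against 0, neither of them called. Of the 21 lysosome genes, 1 was higher, Npc1 at 2.45 (1.83 to 3.35), and 5 were lower, led by Psap at 0.35 (0.32 to 0.40) and Tfeb at 0.38 (0.23 to 0.64). Of the 16 lamellar body and lipid genes, Fabp5 (1.55) was higher and Rab38 (0.45) lower. Alveolar type 1 markers were called in both directions. Akap5 (3.92), Hopx (2.37), Pdpn (2.16) and Ager (2.05) were higher, and Clic5 (0.33) and Emp2 (0.65) were lower. Igfbp2, Cav1, Rtkn2 and Vegfa were not called.

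Detection of the members in the same cell was rare at equal depth. At least 1 of the 7 was seen in 39.3% of 3365 cells and at least 2 in 6.42%. In Sftpa1-positive cells the shares were 57.9% and 11.5%, in Sox9-positive cells 45.5% and 8.26%, in Ager-positive cells 40.8% and 6.24%, and in Sox2-positive cells 29.4% and 2.84%. Ctsh and Lpcat1 were seen together in 147 cells (4.37%, interval 3.70% to 5.11%), where the product of their shares is 3.89%. Ctsh and Napsa were together in 11 cells, where the product gives 5.07, and Lamp3 and Ctsh in 13 cells (0.386%), where it gives 12.8. Another random draw of the thinned UMIs gave 0.773% for Lamp3 and Ctsh, so that count depends on the draw. Ctsh with Sftpa1 was seen in 175 cells against 96.4 from the product, Lamp3 with Sftpa1 in 13 against 6.28, and Abca3 with Sftpa1 in 13 against 13.9. Ctsh with Sox2 was seen in 46 cells against 91.8 from the product. These counts come from 1 library and share its depth.

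The genes whose thinned per-cell values were most like the sum of the 7 were ranked by Pearson correlation over 3365 cells, among 6682 genes seen in at least 5% of cells. The first 10 were Id2 (0.25), Dlk1 (0.25), Sftpb (0.19), Sftpc (0.19), Sftpa1 (0.18), Cthrc1 (0.18), Pthlh (0.17), Sox9 (0.17), Meg3 (0.16) and Tpm1 (0.16). Of the summed UMIs, 57.2% were of Ctsh and 31.9% of Lpcat1, so the ranking is mostly that of Ctsh. With Ctsh alone, Dlk1 correlated at 0.26 and Id2 at 0.22, and with Lpcat1 alone they correlated at 0.07 and 0.10. All of these values are weak, in sparse counts, and are given as a description of 1 library.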

How the data were processed

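Single-cell RNA of sorted lung epithelial cells was counted as UMIs per gene and barcode in the deposited matrix, whole-number counts made with software version 3.0.1 per the file headers. Cell Ranger, Seurat and mm10 are named in the submitters' processing notes, and the library used Chromium 3′ kit chemistry per the labels' protocols. The knockout library's expression was not analysed here.

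Cells with at least 1000 genes and at most 10% mitochondrial UMIs were kept. A marker-positive cell had at least 1 UMI of the marker. CPM is UMIs per 1000000 of the group's total, with exact Poisson intervals. Ratios have exact conditional intervals and shares Clopper-Pearson intervals, all at 95% and for counting error only. Molecules were counted by UMI. A gene was called at 1.5-fold with an interval that excludes 1, over genes of at least 50 UMIs in both groups together. Thinning drew 5000 UMIs per cell. Zero counts were bounded with 3 counts. No doublet caller was run. Cells with at least 4 Xist UMIs and a Y-linked UMI were instead left out as an alternative.

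The 7 genes, the other gene lists and the 14000 UMI limit were chosen with earlier results of these data known. All 7 genes were named, with up to 4 genes per list and comparison, those of the largest and smallest ratios, and the 10 most correlated genes. Between Sox9-only and Sox2-only cells, further alveolar type 1 and type 2 markers were named after their values were seen. Positions are from GENCODE M21, matched by identifier. Python 3.11.15, numpy 2.4.6, scipy 1.17.1, pandas 2.3.3 and matplotlib 3.10.9 were used.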

Additional observations from a re-analysis of the deposited data

How the results depend on the processing

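With 1 library, the intervals hold counting error and no spread between embryos. No called ratio passed to the other side of 1 under the alternatives run. Ratios that were not called did: for Ager with markers thinned Ctsh was 0.92 (0.85 to 0.998), Napsa 0.95 and Lpcat1 0.94, for Sox2 with markers thinned Abca3 was 1.018, and for Ager within Sox9 Napsa was 1.32 in cells of at most 14000 UMIs and Lpcat1 0.86 with markers thinned. For Ager, Ctsh was also 0.974 with at least 2 marker UMIs and, with totals free of mitochondrial and ribosomal genes, 0.975, where Napsa was 0.992. For proliferation Napsa was 0.78 and Lpcat1 1.11 in cells of at most 14000 UMIs. Some ratios of Slc34a2 and Lyz2, of 10 UMIs or fewer, did so too. The single Ager call among the members became 0 with cells weighted equally and with markers thinned, and so did that within Sox9-positive cells with markers thinned. The 4 calls between Sox9-only and Sox2-only cells became 2 with at least 2 marker UMIs and with markers thinned. The 4 calls for Sftpa1 within Sox9-positive cells became 2 with markers thinned. They also became 2 in cells of at most 14000 UMIs, where all 4 ratios stayed past 1.5-fold with intervals above 1 and the loss came from the 50 UMI minimum. The 1 call for proliferating cells became 0 without Xist and Y-linked cells, with cells weighted equally, with totals free of mitochondrial and ribosomal genes, and without the top cell. The cause was not tested.

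Of the counts over all genes, higher and lower, at least 1 of each pair below moved 1.5 times or more. With cells weighted equally (fold alone, no interval), Sftpa1 went from 188 and 533 to 283 and 950, Ager from 133 and 263 to 222 and 499, Sox2 from 1330 and 388 to 1630 and 669, Sftpa1-only against Ager-only from 210 and 579 to 315 and 932, Sftpa1 within Sox9 from 123 and 207 to 202 and 370, Ager within Sox9 from 192 and 77 to 330 and 160, and proliferation from 252 and 97 to 420 and 225. With at least 2 marker UMIs, Ager gave 210 and 270 and Ager within Sox9 326 and 92. With markers thinned, Sox9 went from 312 and 700 to 109 and 394 and Sftpa1-only against Ager-only gave 178 and 379. With genes of at least 10 UMIs, Ager gave 167 and 486, Sox9 345 and 1059, Ager within Sox9 242 and 127, and proliferation 294 and 183. In cells of at most 14000 UMIs, proliferation gave 470 and 175.

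No paired analysis was possible because there is 1 library per group and the results come from no test.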
